A study of Mus musculus with 4 samples.

Results

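Integrins and laminins were examined as SCL-bound loci in blood-fated mesoderm. Peaks were taken as members when the summit had, as its nearest transcription start site (TSS) of a protein-coding gene, that of an integrin or laminin subunit gene, with TSSs from the GENCODE vM1 annotation of the mm9 mouse genome. This rule gave 39 peaks out of the 12885 in the deposited list, at 21 of the 36 genes considered. The study that deposited the list reports fewer SCL-bound loci than it holds. Of the 39, 23 peaks lay at 14 of 26 integrin genes and 16 peaks lay at 7 of 10 laminin genes. Over all protein-coding genes 29.1% had a peak by this rule. The stretch of chromosome nearest to a gene's TSSs had a median of 97.7 kb for the 36 genes and 45.7 kb for all genes.

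The study mapped binding of SCL (gene symbol Tal1), a helix-loop-helix regulator without which no blood forms, by chromatin immunoprecipitation and sequencing. Wild-type J1 ES cells, given in the labels as strain C57Bl/6 X Sv129, were differentiated into embryoid bodies (EBs), and FLK1+ mesoderm was isolated with magnetic beads at day 3.5. The SCL group held 2 libraries made with an in-house rabbit anti-serum to SCL, and the input group held 2 libraries without antibody. Both groups were wild-type, the cells came from 1 ES cell line, and only a part of the FLK1+ population expresses SCL. The peak list holds no expression values, so the cell type could not be checked against its markers.

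Integrins are receptors of the cell surface, each made of an alpha and a beta subunit, that hold cells to the extracellular matrix or to other cells and pass signals in both directions. Laminins are large proteins of basement membranes, each made of an alpha, a beta and a gamma chain. In early mesoderm and blood they serve cell migration, and the alpha IIb integrin (CD41) is a surface marker of the first haematopoietic progenitors and later of megakaryocytes and platelets.

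SCL binds DNA with an E-protein partner at E-boxes (CANNTG, where N is any base) or, in a complex with LMO2, LDB1 and a GATA factor, at an E-box half-site beside a GATA site. The sequences of 50 bases on each side of the summit are shown for the strongest integrin and laminin peaks and for the strongest peak of each member in the expression lists of the study. They show which of these motifs lie under the strongest binding. All are read 5′ to 3′ on the forward strand of mm9. Capitals mark GATA motifs (the letters GATA on either strand, preceded by an A or a T and followed by an A or a G), E-boxes, and both ends of the composite of CTG and GATA with 7 to 9 bases between them.
Itgb6, chr2:60568240-60568340: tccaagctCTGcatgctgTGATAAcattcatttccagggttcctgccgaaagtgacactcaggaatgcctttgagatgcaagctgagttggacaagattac
Itga2b, chr11:102331430-102331530: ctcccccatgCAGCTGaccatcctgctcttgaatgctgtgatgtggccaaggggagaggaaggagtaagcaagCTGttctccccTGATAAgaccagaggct
Lama4, chr10:38103096-38103196: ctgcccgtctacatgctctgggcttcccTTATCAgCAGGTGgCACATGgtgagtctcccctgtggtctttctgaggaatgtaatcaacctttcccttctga
Itgb2, chr10:76994182-76994282: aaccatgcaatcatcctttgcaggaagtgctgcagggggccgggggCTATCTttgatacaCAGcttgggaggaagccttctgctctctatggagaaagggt
Itga6, chr2:71595274-71595374: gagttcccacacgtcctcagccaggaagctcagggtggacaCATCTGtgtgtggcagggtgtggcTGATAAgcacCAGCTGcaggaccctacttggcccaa
Itgae, chr11:72914975-72915075: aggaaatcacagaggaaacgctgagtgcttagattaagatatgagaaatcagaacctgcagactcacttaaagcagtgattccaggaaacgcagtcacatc
Itga1, chr13:115949787-115949887: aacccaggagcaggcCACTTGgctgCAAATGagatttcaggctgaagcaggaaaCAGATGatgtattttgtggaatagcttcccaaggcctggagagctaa
Lama2, chr10:27039759-27039859: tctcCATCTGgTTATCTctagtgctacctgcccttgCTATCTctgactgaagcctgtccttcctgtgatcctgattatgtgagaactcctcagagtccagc
Itgb3, chr11:104522618-104522718: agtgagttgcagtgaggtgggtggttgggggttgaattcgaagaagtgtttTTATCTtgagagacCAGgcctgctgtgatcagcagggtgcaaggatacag
Itga5, chr15:103213331-103213431: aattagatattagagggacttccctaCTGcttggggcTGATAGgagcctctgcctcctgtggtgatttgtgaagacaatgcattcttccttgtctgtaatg
Lama5, chr2:179973386-179973486: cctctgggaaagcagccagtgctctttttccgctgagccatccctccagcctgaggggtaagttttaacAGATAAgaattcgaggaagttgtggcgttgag
Lamc1, chr1:155120933-155121033: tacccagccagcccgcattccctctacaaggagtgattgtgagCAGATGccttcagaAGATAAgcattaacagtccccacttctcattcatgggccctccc

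Of these 12 windows, chosen for strength or for the lists of the study, 10 hold a GATA motif and 5 hold the composite, beside 73.2% and 32.9% of all peaks. The Itga2b window holds the composite and a separate CAGCTG, the Lama4 window a GATA motif next to a pair of E-boxes with no composite, and the Itgae window neither a GATA motif nor an E-box. The Itga1 window holds 3 E-boxes and no GATA motif.

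Fold enrichment is the authors' ratio of ChIP fragments at the summit to the local background. The list was called on the merged libraries, so no value has a replicate error and nothing was tested. Shares and medians over the members stand beside the same value over the whole list, except under some of the changed settings given at the end. Solving the equations of the peak caller gave the number of fragments stacked at each summit (pileup) and the local background, and the 95% Poisson intervals from the pileup cover counting error only. The depth of each library is not in the list. Over the 39 peaks the pileup ranged from 24 to 1082 fragments with a median of 50, beside a median of 53 over all peaks.

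The integrin and laminin peaks had a median fold enrichment of 10.2 (95% interval of the median 8.09 to 16.1), and all peaks had a median of 11.1. At a fold of at least 10 there were 21 member peaks, 53.8%, beside 56.6% of all peaks. Of the 39 peaks, 12 were at or above the upper quartile of the whole list (20.1) and 12 were below its lower quartile (7.84). The median width was 392 bp (336 to 503), beside 397 bp. The medians of fold and width over all peaks lay inside the member intervals.

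**Figure D1:**
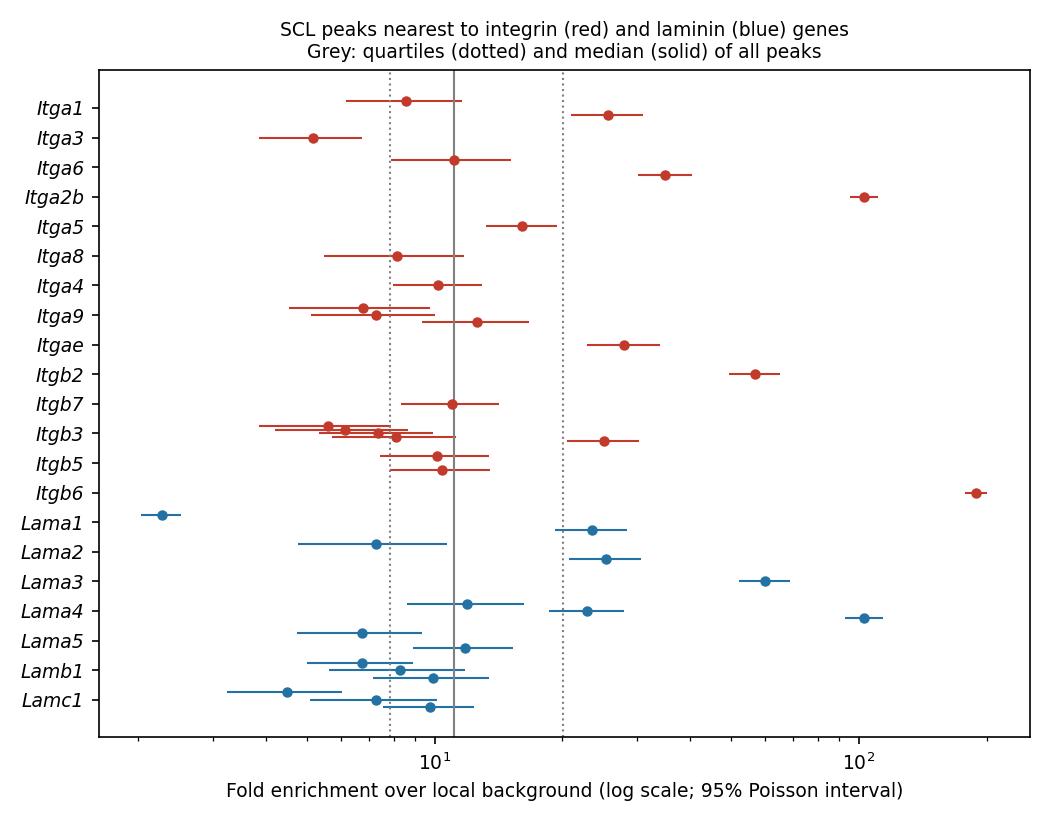
Fold enrichment (log scale) of each SCL peak nearest to an integrin (red) or laminin (blue) gene, 1 point per peak with its 95% Poisson interval. The grey lines are the quartiles and the median of all peaks. The points run from 2.27 at Lama1 to 189 at Itgb6, and several genes hold a strong and a weak peak.

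Among the RGD-binding alpha subunits, which recognise fibronectin, vitronectin and fibrinogen, 3 of 4 genes had a peak, beside 29.1% of all protein-coding genes. The stretches nearest to these 4 genes held 5.29 peaks per Mb (Poisson interval 1.09 to 15.5), beside 4.85 over the genome. Itga2b encodes alpha IIb, which pairs with beta 3 as the platelet fibrinogen receptor. Its single peak (chr11:102330890-102331746) had a fold of 103 (95.2 to 111) on a pileup of 668 fragments, rank 199 of 12885. The summit lay 44 bp upstream of the TSS and the region covered the TSS, the only peak among the 39 within 1 kb of the 5′ end of its gene. The next protein-coding gene, Fam171a2, started 22.5 kb away. Itga5, the alpha subunit of the main fibronectin receptor, had 1 peak (chr15:103212983-103213824) 16.2 kb upstream with a fold of 16.1 (13.2 to 19.4). A stronger peak with a fold of 85.7 (chr15:103169658-103170546) lay within 10 kb of the 3′ end of Itga5 but 475 bp from the TSS of Zfp385a, so the rule gave it to that gene. Itga8 had a peak with a fold of 8.15 outside the gene, 113.1 kb downstream of its nearest TSS. Itgav, the common partner of several beta subunits, had none.

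The beta subunits that pair with alpha v or alpha IIb held 8 peaks at 3 of 4 genes, beside 29.1% of all protein-coding genes with a peak. Their stretches held 14.2 peaks per Mb (Poisson interval 6.11 to 27.9, counting error only), beside 4.85 over the genome. Of these 8 peaks, 5 lay at the single gene Itgb3. With transcripts annotated as protein-coding only, the strongest Itgb3 peak and both Itgb5 peaks left these genes, and the density was not recomputed. Itgb6, whose product is best known from epithelia as the beta subunit of a receptor that activates TGF-beta, had the strongest peak of the group (chr2:60567935-60568447). Its fold was 189 (178 to 201) on 1082 fragments, rank 27 of the list, and its interval did not overlap that of Itga2b. The summit was intergenic, 7.6 kb upstream of Itgb6 and 32.1 kb from the TSS of Rbms1. The peak list does not show whether either gene is expressed.

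Itgb3, the partner of alpha IIb and alpha v, held 5 peaks, more than any other member, and all 5 lay in its introns. The strongest (chr11:104522438-104522804) lay 53.3 kb into the gene with a fold of 25.1 (20.5 to 30.3) on 104 fragments. The other 4 lay between 10.9 and 20.1 kb into the gene with folds of 5.60, 8.09, 7.35 and 6.13 in that order. Their counting intervals overlapped one another and lay below that of the strongest. The nearest TSS to the strongest peak was an internal one of Itgb3, 23965 bp away, and the TSS of Gm11639 was 24353 bp away. This assignment was thus nearly a tie. With transcripts annotated as protein-coding only, the strongest peak left Itgb3.

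Itgb5 held 2 intronic peaks of nearly equal strength, 10.4 (7.84 to 13.5) and 10.1 (7.43 to 13.4), whose intervals overlapped. The second lay 225 bp from an internal TSS that belongs to a transcript not annotated as protein-coding, 93.0 kb from the 5′ end of the gene. Itgb8 had no peak. Itgb1, the beta subunit shared by the collagen receptors, most laminin receptors and several fibronectin receptors, also had none. Nearer to its TSSs than to any other lay 373 kb of chromosome. The Poisson interval for Itgb1, 0 to 9.90 peaks per Mb, holds the 4.85 of the genome. The absence says only that no region there passed the call in the merged libraries.

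**Figure D2:**
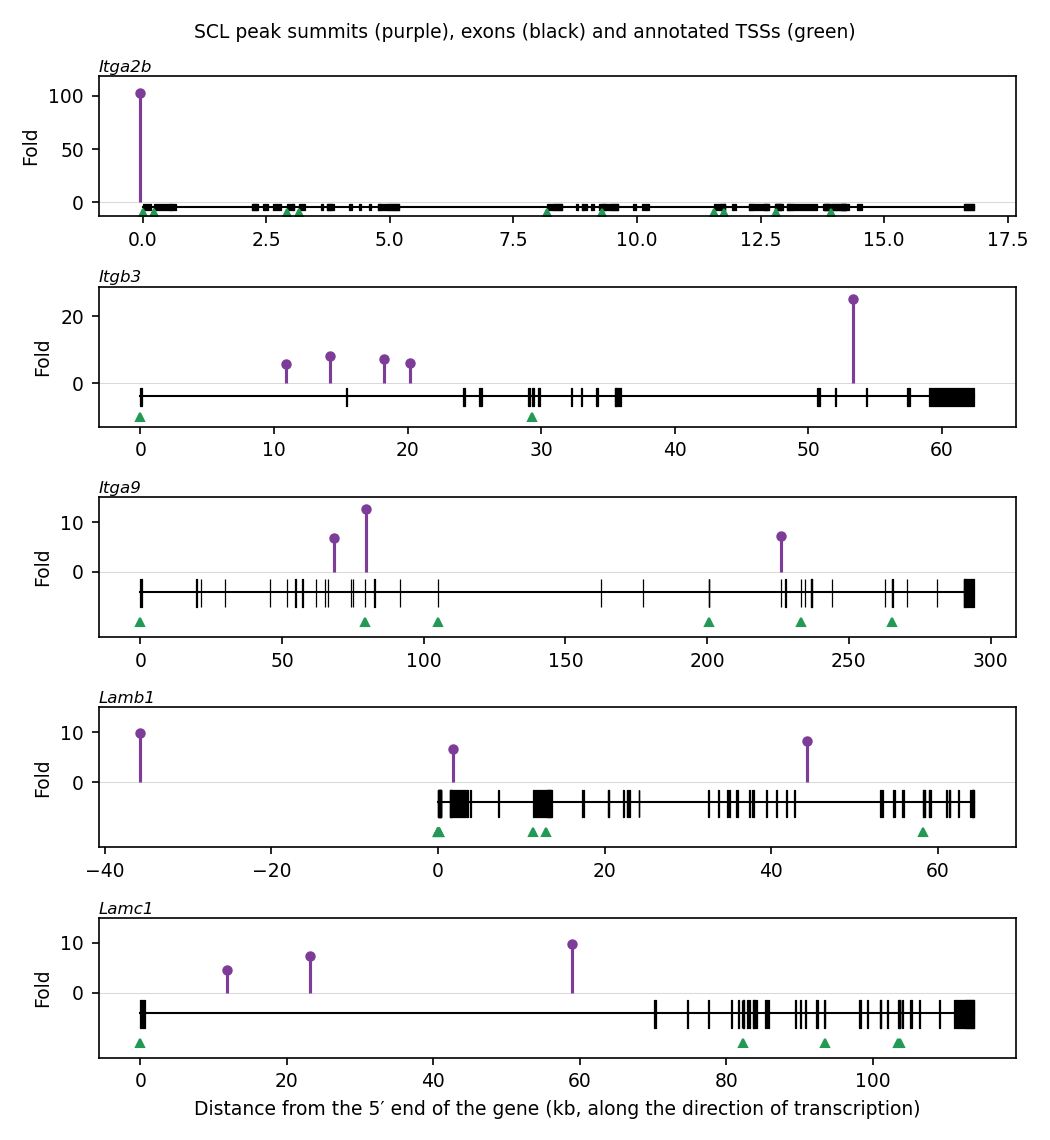
SCL peak summits (purple, height is fold enrichment) along 5 member genes drawn from the 5′ end (kb, in the direction of transcription), with exons in black and annotated TSSs in green. Scales differ between genes. The Itga2b peak stands at the 5′ end with a fold of 103, and the Itgb3 peaks form a group between 10.9 and 20.1 kb and a stronger summit at 53.3 kb. Lama4 is not drawn because its 3 peaks lie 56.6 kb or more upstream.

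Of the leukocyte integrins, which hold white blood cells to each other, to endothelium and to epithelium, 3 of 7 had a peak. Itgb2 (CD18), the beta subunit shared by LFA-1 and Mac-1, had a peak with a fold of 56.8 (49.4 to 65.0) in an intron 1.2 kb from its 5′ end (chr10:76993771-76995054). At 1284 bp it was the widest of the 39 peaks. Itgae (CD103) had an intronic peak with a fold of 27.9 (22.8 to 33.9), and Itgb7, the partner of alpha E and alpha 4, had one with a fold of 11 (8.34 to 14.2), 6.6 kb into the gene. The alpha partners of Itgb2, Itgal, Itgam, Itgax and Itgad, had no peak. Both beta subunits and 1 of 5 alpha subunits thus had a peak, beside 29.1% of all protein-coding genes, and the density of 10.7 peaks per Mb rests on 3 peaks (Poisson interval 2.20 to 31.2, beside 4.85 over the genome).

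Itga4, the alpha subunit of the VCAM-1 receptor VLA-4 found on haematopoietic progenitors, had 1 peak 82.2 kb upstream with a fold of 10.2 (7.95 to 12.9). Itga9, its closest relative, held 3 intronic peaks. The strongest (chr9:118595294-118595829) had a fold of 12.6 (9.35 to 16.7) and lay 506 bp from an internal TSS, 79.7 kb into the gene. The others had folds of 7.26 (5.12 to 10) and 6.76 (4.54 to 9.72). All 3 intervals overlapped, which by itself does not show that the folds were alike. At 151 bp the weakest was also the narrowest of the 39 peaks.

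Of the laminin-binding integrins, Itga6, expressed on many stem and progenitor cells, held 2 intronic peaks. The one 11.7 kb into the gene (chr2:71595093-71595550) had a fold of 35.0 (30.2 to 40.4), and the one 105.2 kb in had 11.1 (7.88 to 15.1). The intervals did not overlap. When lincRNA and processed-transcript genes were added to the TSSs, the stronger of these was the only member that moved to another gene. Itga3 had a weak peak with a fold of 5.15 (3.85 to 6.75) 2.9 kb upstream, on a local background of 8.91 fragments. Itga7 had none. Itgb4, the partner of alpha 6 in hemidesmosomes, had none by the rule, although a peak with a fold of 7.37 inside it lay nearer to the TSS of Galk1. Among the collagen-binding alpha subunits Itga1 held 2 intergenic peaks, with folds of 25.6 (21.0 to 30.9) at 57.7 kb and 8.57 (6.16 to 11.6) at 5.7 kb upstream, whereas Itga2, Itga10 and Itga11 had none. A peak with a fold of 40.2 inside Itga11 lay nearer to the TSS of Fem1b, as did another with a fold of 11, so Itga11 was without a peak by the rule and not by position. A peak was found at 2 of 4 laminin-binding and 1 of 4 collagen-binding genes, beside 29.1% of all protein-coding genes. Their stretches held 12.2 (Poisson interval 2.52 to 35.7) and 2.42 (0.293 to 8.75) peaks per Mb. Both intervals hold the 4.85 of the genome. Itga7 and Itga10 had stretches of only 18.5 and 20.9 kb.

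All 5 laminin alpha chain genes had a peak, 10 in all, with folds from 2.27 to 103, beside 29.1% of all protein-coding genes with a peak. The stretches nearest to these 5 genes summed to 2.26 Mb and held 4.43 peaks per Mb (2.13 to 8.15), close to the 4.85 of the genome. Lama4, the alpha chain of endothelial and vascular basement membranes, held the strongest (chr10:38102838-38103520), with a fold of 103 (92.6 to 114) on 371 fragments. It lay 582.2 kb upstream of Lama4 in intergenic sequence, and the next TSS, of 1700025K23Rik, was 739.0 kb away. Its assignment thus rests on the absence of nearer annotated genes. Lama4 had 2 further upstream peaks, with folds of 22.9 (18.6 to 28.0) at 84.6 kb and 11.9 (8.61 to 16.2) at 56.6 kb. All 3 differed beyond their counting intervals.

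Lama3, a chain of epithelial basement membranes, had an intronic peak with a fold of 60.0 (52.1 to 68.7) 13.4 kb into the gene. Lama2, the chain of muscle basement membrane, held 2 intronic peaks with folds of 25.3 (20.7 to 30.6) and 7.28 (4.77 to 10.7). Lama1, the chain of the earliest embryonic basement membranes, held 1 intronic peak with a fold of 23.5 (19.2 to 28.4) and another with a fold of 2.27 (2.03 to 2.52). The weak one (chr17:68090704-68090858) had a pileup of 341 fragments on a local background of 150 fragments, beside a median background of 3.67 over all peaks. It was the only member whose background exceeded 10 times that median, and 70 of all peaks did so.

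Lama5, the most widely expressed alpha chain, held 2 upstream peaks. The one 12.9 kb upstream (chr2:179973307-179973673) had a fold of 11.8 (8.90 to 15.3), and the one 1.8 kb upstream had 6.74 (4.73 to 9.34). Lamb1 and Lamc1, the beta and gamma chains of most embryonic laminins, held 3 peaks each, with folds from 4.48 to 9.89. The Lamb1 folds were 9.89 (7.14 to 13.4) at 35.7 kb upstream, 6.72 (4.99 to 8.87) at 1.8 kb into the gene, in a non-coding part of an exon, and 8.29 (5.64 to 11.8) at 44.3 kb into it. The Lamc1 folds were 4.48 (3.24 to 6.03) at 11.8 kb, 7.28 (5.08 to 10.1) at 23.1 kb and 9.76 (7.56 to 12.4) at 58.9 kb into the gene, all intronic. Intervals of the 3 Lamb1 peaks overlapped, whereas the lowest and highest Lamc1 intervals did not. Lamb2, Lamb3 and Lamc3 had no peak. A peak was thus found at 1 of 3 beta and 1 of 2 gamma chain genes, beside 29.1% of all protein-coding genes. Their stretches held 17.3 (Poisson interval 3.56 to 50.5) and 12.8 (2.64 to 37.5) peaks per Mb, each on 3 peaks. Both intervals hold the 4.85 of the genome. None of the 6 Lamb1 and Lamc1 peaks reached the median fold of the list.

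The study lists Itga2b, Itgb3, Lama5 and Lamc1 among the genes activated by SCL and Itga5 among those repressed. It chose these lists with the same ChIP libraries, so that these genes carry a peak is not independent evidence. The lists rest on the study's smaller set of bound loci, and which member peaks belong to that set was not checked. They held 12 of the 39 peaks, of which 4 had a fold of at least 10, 9 a GATA motif and 6 the composite. Over all peaks these shares were 56.6%, 73.2% and 32.9%. The strongest peaks of the 5 genes ran from 103 at Itga2b through 25.1 at Itgb3, 16.1 at Itga5 and 11.8 at Lama5 to 9.76 at Lamc1. The intervals of Itgb3 and Itga5 did not overlap, and those of Lama5 and Lamc1 did.

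The summits lay a median of 12.9 kb (9.19 to 23.4) from the nearest TSS, beside 24.1 kb over all peaks. With transcripts annotated as protein-coding only, the median was 21.6 kb, beside 28.4 kb over all peaks, and 2.94% of member summits lay within 1 kb, beside 6.52%. With all transcripts, 3 of 39, 7.69% (Wilson interval 2.65 to 20.3), lay within 1 kb, beside 7.59% of the list, and 2 of these were at internal TSSs (Itga9 and Itgb5). Of the 39, 21 were upstream and 18 downstream of the TSS, beside 48.9% upstream over all peaks. All 25 peaks inside a protein-coding gene, 64.1% (48.4 to 77.3), were inside the member gene itself, and 45.9% of all peaks were inside a gene. In introns lay 24, 61.5% (45.9 to 75.1), beside 42.4% of all peaks. Member genes had a median length of 63.4 kb, whereas that of all protein-coding genes was 15.4 kb, and the part of gene length in these shares was not tested. Another summit lay within 10 kb of 6 member summits, 15.4% (7.25 to 29.7), beside 31.1% of all peaks. In 8 cases the next gene was under 2 times as far as the member gene, which was so for 37.9% of all peaks.

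**Figure D3:**
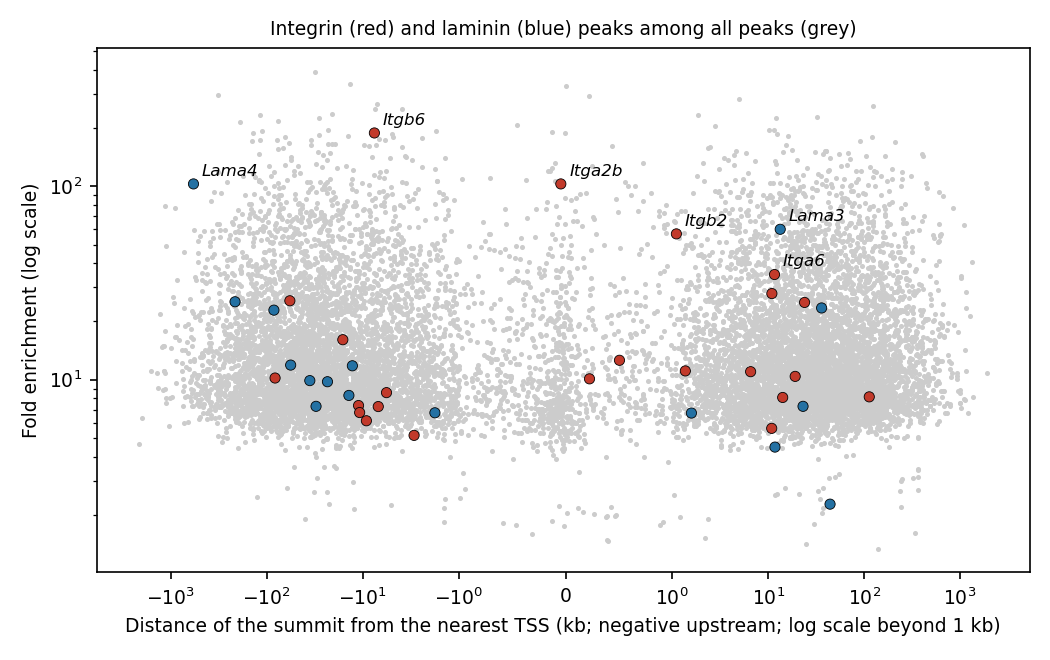
Distance of each summit from its nearest TSS (kb, negative upstream, log scale beyond 1 kb) against fold enrichment (log scale), with integrin peaks in red, laminin peaks in blue and all 12885 peaks in grey. Itga2b stands at the TSS with a fold of 103, and Lama4 with the same rounded fold 582.2 kb upstream.

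A peak was found at 58.3% of the member genes (21 of 36), beside 29.1% of all 22225 protein-coding genes. The stretch of chromosome nearer to the TSSs of a gene than to any other had a median of 97.7 kb for members and 45.7 kb for all genes, so that a member gene drew on more sequence. Per length the member stretches held 6.45 peaks per Mb (Poisson interval 4.59 to 8.82, counting error only), beside 4.85 over the genome, which lies inside that interval. Members with a peak had a median stretch of 129 kb and those without had 52.7 kb. Itgb3 had 76.9 peaks per Mb in its 65.0 kb, on 5 peaks, whereas Lama4 had 2.83 in 1062 kb, on 3 peaks. Itgb3 was the densest of the 36 genes, and the assignment of its strongest peak was nearly a tie.

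**Figure D4:**
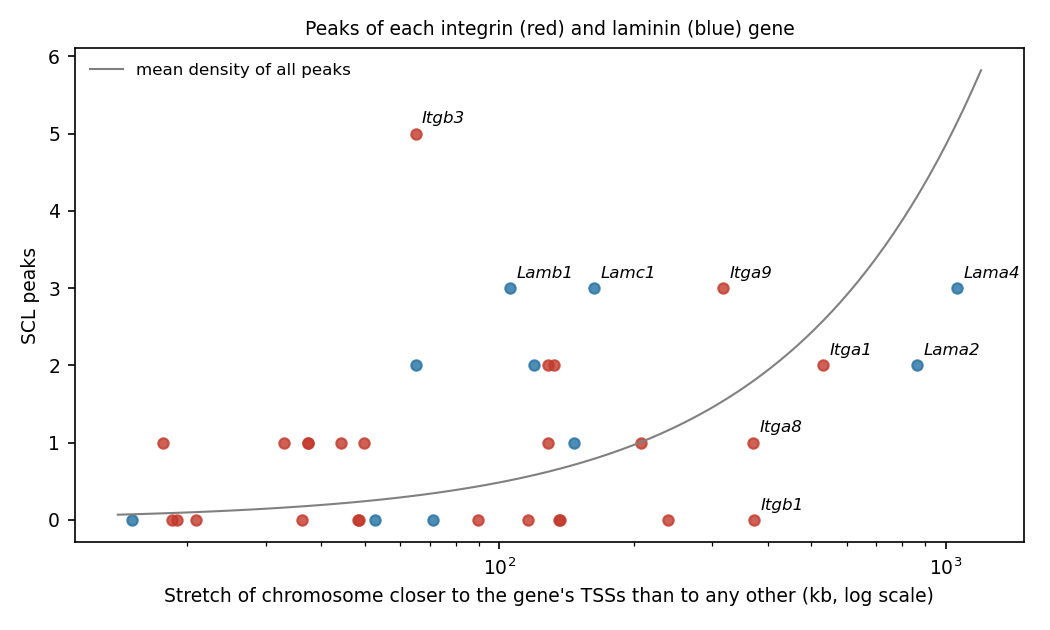
Number of SCL peaks of each of the 36 genes against the stretch of chromosome nearest to its TSSs (kb, log scale), with integrins in red and laminins in blue. The line gives the peaks that the mean density of the list, 4.85 per Mb, would place there. Itgb3 stands highest with 5 peaks, and Itgb1 has none in 373 kb.

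Motifs were counted on both strands within 50 bp of the summit and compared with windows of the same length over the list. A GATA motif was present in 30 of 39 peaks, 76.9% (61.7 to 87.4), beside 73.2% of all peaks and 17.8% of windows 1 kb from the summits of all peaks. An E-box of any centre was present in 20, 51.3% (36.2 to 66.1), beside 52.6% and 42.4%. CAGCTG, which is also counted among the E-boxes, was present in 5, 12.8% (5.60 to 26.7), beside 14.1% and 4.70%. The 5 were at Itga2b, Itga6, Itgb7, Lamc1 and Lama5. AGGAA, the core of ETS factor sites, was present in 27, 69.2% (53.6 to 81.4), beside 51.9% and 33.1%. AGGAA and a GATA motif together were present in 21 of the 39, beside 36.2% of all peaks.

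The composite of CTG and GATA, in which the GATA core may overlap a GATA motif and the CTG an E-box, was present in 14 peaks, 35.9% (22.7 to 51.6), beside 32.9% of all peaks and 3.07% of windows 1 kb away. Gaps of 9 bases were found in 10 member peaks and gaps of 8 in 5, with 1 peak holding both, and gaps of 7 in none. Over the list gaps of 9, 8 and 7 bases were found in 18.3%, 12.3% and 3.60% of peaks. Among the 10 strongest members, 5 held the composite (Itgb6, Itga2b, Lama3, Itgb2 and Itgb3), and among the other 29 there were 9. The peaks with the composite had a median fold of 13.6 and those without had 9.89, beside 13.3 and 10.3 over the list. In 16 of the 30 peaks with a GATA motif its centre lay within 20 bp of the summit, as at Itgb3 and Itgb2 in the sequences above, and over the list this was so in 58.4% of peaks with a GATA motif.

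**Figure D5:**
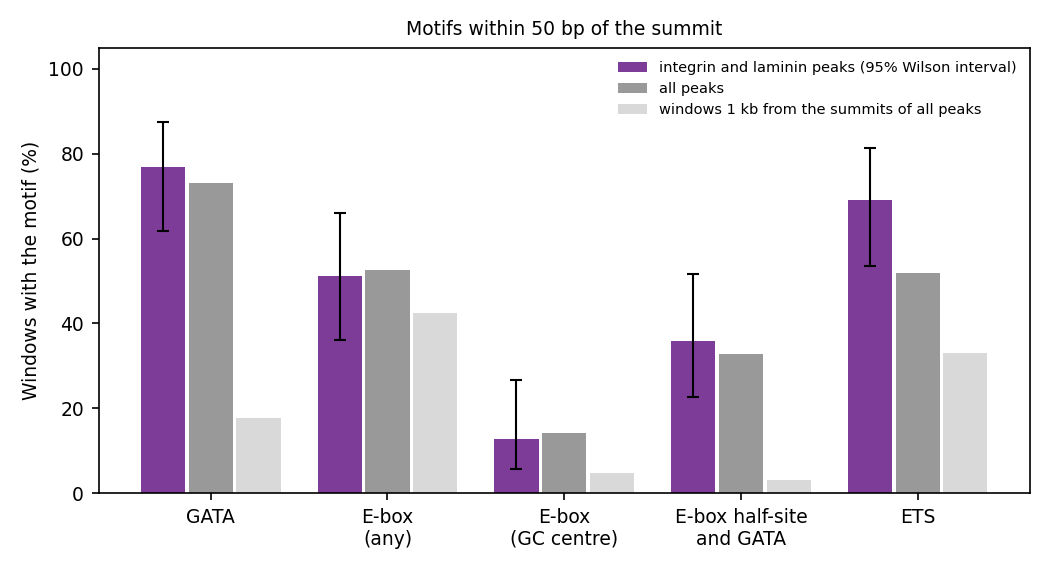
Percentage of windows holding each motif within 50 bp of the summit in the 39 integrin and laminin peaks (purple, with 95% Wilson intervals), in all peaks (dark grey) and in windows 1 kb from the summits of all peaks (light grey). The GATA shares are 76.9%, 73.2% and 17.8%, and the share of all peaks lies inside the member interval for every motif drawn except ETS.

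Neither a GATA motif nor an E-box was present in 3 of the 39 peaks, beside 12.1% of all peaks. They lay at Itgae, Itga9 and Lama1, and the Itgae peak was the strongest with a fold of 27.9. The Lama1 peak of the 3 was the one on the high background, and it also lacked AGGAA. No match says only that these letters are not in the window.

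Other genes of adhesion were taken as 56 genes in 5 lists. A peak was found at 33 of them, beside 29.1% of all protein-coding genes, with 80 peaks in all and a median fold of 12.7, beside 11.1 over all peaks. Their stretches had a median of 90.1 kb, beside 45.7 kb for all genes, and held 12.2 peaks per Mb, beside 4.85 over the genome. The cytoplasmic adaptors, which link beta tails to actin and switch integrins on, had a peak at 15 of 21 genes. The strongest was at Rap1a, a small GTPase of integrin activation, with a fold of 164 (chr3:105611354-105611852). Fermt3, the kindlin of blood cells, had a peak with a fold of 20.5 at 1.2 kb from its TSS, and Rasgrp2, an exchange factor for Rap1 in platelets, had one with a fold of 13.1 at 0.4 kb. Tln1, Ilk, Lims2, Ptk2, Pxn and Apbb1ip had none. The stretches nearest to Ilk, Lims2 and Tln1 were only 4.50, 18.9 and 26.9 kb, whereas those of Pxn, Ptk2 and Apbb1ip were 60.0, 122 and 136 kb.

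Of the basement membrane partners of laminin, 6 of 12 genes had a peak, with 20 peaks in all. The divergent collagen IV genes Col4a1 and Col4a2 held 11 of these, with folds of up to 76.9 and 26.9. The perlecan gene Hspg2 had 4, with folds of up to 15.0. The matrix ligands had a peak at 4 of 11 genes, beside 29.1% of all protein-coding genes, and 3.54 peaks per Mb on 6 peaks (Poisson interval 1.30 to 7.71, which holds the 4.85 of the genome), whereas the other lists held between 12.7 and 21.5 per Mb. Thbs1 led with a fold of 75.1 at 45.3 kb upstream, and Vwf, the gene of von Willebrand factor, which platelet integrins bind, had a peak with a fold of 22.0 at 55 bp from the TSS. Fn1 had no peak within 10 kb of the gene, and TSSs of a gene that GENCODE vM1 names Apol7d, annotated on both sides of its start, left it a stretch of only 238 bp, so the nearest-TSS rule could hardly give it one. The cell-surface ligands had a peak at 4 of 7 genes, among them Vcam1, the ligand of alpha 4 integrins, with a fold of 28.2, and Icam2, with 26.5 at 62 bp from the TSS. The list of integrin-associated membrane proteins, made of tetraspanins and Cd47, which is not one, had a peak at 4 of 5 genes. It was led by Cd9 with a fold of 67.0, and Cd47 held 7 of its 10 peaks.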

How the data were processed

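The authors aligned reads to mm9 with Bowtie 1.1.2, called peaks with MACS2 2.0.10 on the merged SCL libraries against the merged inputs, and set the list by the irreproducible discovery rate, per the labels and the study's methods. Groups came from the labels. The deposited list gives, for each peak, positions, the fold (a ratio of pileup to local background), −log10 p and −log10 q, and a score that equalled 10 times the −log10 p, truncated, in 100% of peaks and was not used. Pooling removes the spread between differentiations.

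The fold, (pileup + 1) / (background + 1), and the Poisson p were solved together for pileup and background, which matched the −log10 p to within 0.001 in 99.9% of peaks and in all 39 member peaks. The lowest background was 2.43 fragments. The code was tested on simulated data. NCBIM37 is the same build as mm9, and every peak lay within its chromosome. Summits were assigned to the nearest TSS of any transcript of a GENCODE vM1 protein-coding gene. Coordinates count from 1. Python 3.11.15, NumPy 2.4.6, pandas 2.3.3 and SciPy 1.17.1 were used.

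Peaks described in full were the 10 member peaks with the highest fold, all peaks of members in the study's expression lists, and the 5 members with most peaks. Members and lists were chosen with earlier results of these data known. Peaks of 1 further gene covered by the rule, and the sequence at Lama3, are not reported here. Shares have Wilson and medians order-statistic 95% intervals. Alternatives covered thresholds, annotation, assignment, motif window, promoter distance and background.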

Additional observations from a re-analysis of the deposited data

How the results depend on the processing

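Of 57 alternative values, 46 stayed within the interval of the reported value or, for counts, within 1.5 times of it, and 11 did not. Of the 46, 4 equalled the reported value, among them the 39 peaks after regions within 500 bp were joined. The shares with AGGAA and in introns were not varied. At a fold of at least 10, 21 peaks remained of 39, with a median fold of 23.5, a median width of 513 bp and a GATA motif in 90.5%. At a −log10 q of at least 50 there were 13 peaks at 12 genes, with a median fold of 27.9, a median width of 513 bp and the composite in 53.8%. These thresholds select on strength by construction. With 100 bp on each side of the summit 66.7% of peaks held an E-box, and with a promoter distance of 5 kb 20.5% of summits counted as near a TSS. A wider window or distance can only raise such a share. For these thresholds, window and distance the values over all peaks are not given, so no comparison with the list is drawn. Restricting TSSs to transcripts annotated as protein-coding left 34 peaks at 20 genes, without both Itgb5 peaks, the strongest Itgb3 peak and 1 peak each of Itga6 and Lamb1. Without the Lama1 peak on high background there were 38 peaks with a median fold of 10.3. No paired analysis was possible because no library has values of its own in this pooled call, and for the same reason leaving out a replicate was not run. The depth behind a member peak went down to a pileup of 24 fragments, at Lama2, where the fold of 7.28 had a counting interval of 4.77 to 10.7.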

Other observations

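Some peaks lay inside member genes but nearer to the TSS of a neighbour. An intronic position inside Itga1 (chr13:115811650-115812074) carried a peak with a fold of 8.84, nearest to Pelo. Itgb4 held a peak with a fold of 7.37 (chr11:115865798-115866235) that lay 8038 bp from the TSS of Galk1. Assigning by position, inside a member gene or up to 10 kb beyond its ends, gave 35 peaks at 20 genes with a median fold of 9.76, beside 39 at 21 genes by the nearest TSS.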
